A study of Rattus norvegicus with 6 samples.

Results

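Amino acid transporters of the solute carrier families Slc1, Slc3, Slc6, Slc7, Slc36, Slc38 and Slc43 were followed in messenger RNA of rat islets of Langerhans at 2 ages. The members were taken by name, as every gene row whose symbol is one of these family prefixes followed by a number, which gave 58 of 17055 rows. The samples were whole islets of Sprague-Dawley rats described as controls: 3 libraries from 10-day-old pups (P10) and 3 from 3-month-old males (adult), numbered 1, 3 and 4 at P10 and 1, 2 and 3 in adults. The labels call the libraries biological replicates but do not say whether each pools animals, so the p-values measure the spread between these libraries. They give no sex for the pups, so age and sex cannot be told apart. The title of the series places the comparison in postnatal beta-cell maturation and a shift in nutrients.

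Amino acids cross the plasma membrane through carriers with overlapping substrates. Slc3 proteins are heavy chains that bring a light chain of the Slc7 family to the cell surface, and the pair then exchanges amino acids. Slc1, Slc6 and Slc38 proteins use the sodium gradient, and Slc43a1 and Slc43a2 carry large neutral amino acids without it. Of the Slc36 proteins, Slc36a1 moves small amino acids with protons, often out of lysosomes. In beta cells leucine and glutamine stimulate insulin secretion and feed protein synthesis, arginine depolarises the membrane, and in alpha cells amino acids drive glucagon release. The name rule also takes carriers of related compounds, among them taurine, creatine, GABA and monoamines.

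Of the 58 genes, 30 had enough reads to be tested, 17 had a few reads and 11 had none in any library. In adult islets 12 of the 30 were higher and 1 was lower, and 17 did not pass (edgeR's quasi-likelihood test, Benjamini-Hochberg false discovery rate, FDR, under 0.05 over all genes). That is 40.0% higher and 3.33% lower, where over all 10124 genes tested 12.5% were higher and 13.8% were lower, 26.3% in all. The median log2 fold change, adult over P10, was 0.43 over the 30 transporters and -0.03 over all genes tested. The 2 ages did not overlap in 15 of the 30, or 50.0%, against 42.3% of all genes. Of these 30, 5 reached the minimum in all 3 libraries of one age but not of the other. They are Slc1a2, Slc1a3 and Slc7a11, with the shortfall at P10, and Slc38a9 and Slc7a7, where it lay in adults. Slc1a2 and Slc7a7 are counted among the calls above, and each met the minimum in full only at the age where it was higher.

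**Figure D1:**
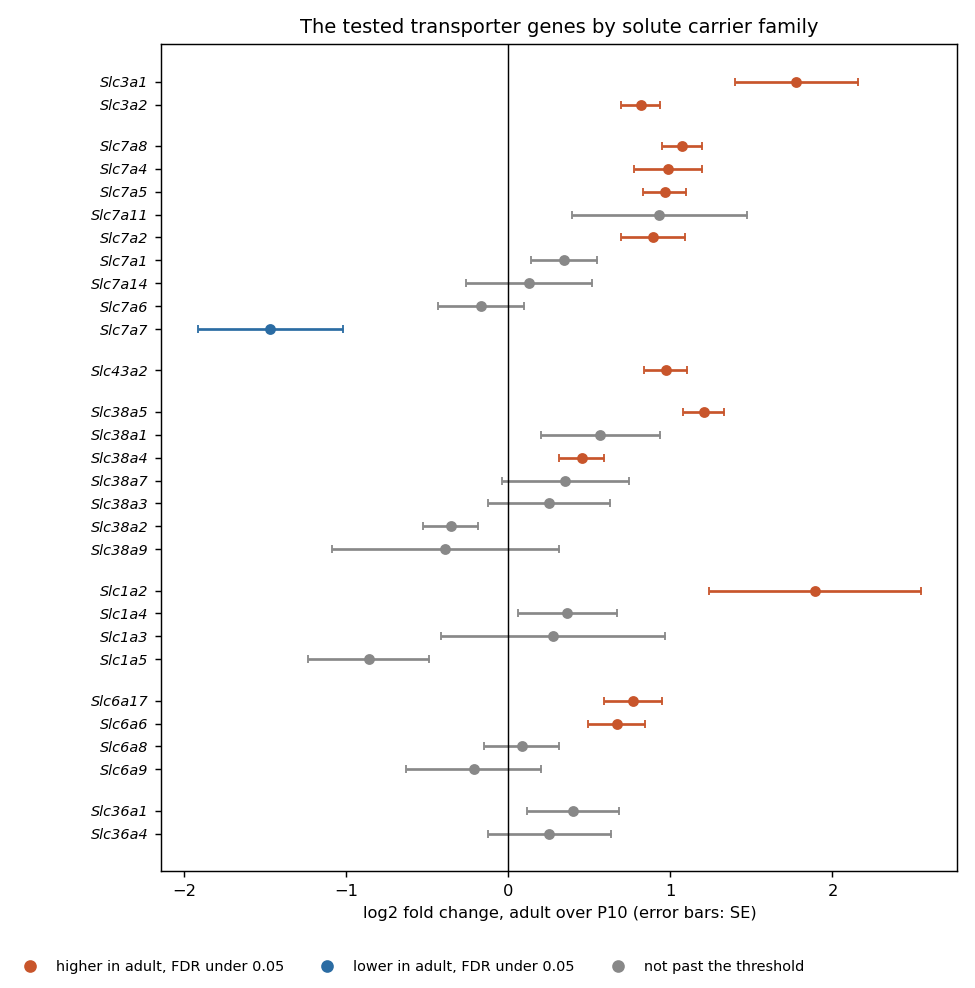
Log2 fold change, adult over P10, with its standard error (SE), for the 29 tested transporter genes that reached the minimum in all 3 libraries of at least one age, grouped by solute carrier family from Slc3 at the top to Slc36 at the bottom. The 12 genes past the threshold on the right run from 0.45 for Slc38a4 to 1.89 for Slc1a2, and Slc7a7 alone is past it on the left, at -1.47.

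Levels are CPM, a gene's reads per 1000000 gene counts after scaling of each library by TMM factors, the trimmed mean of log ratios. Gene counts per library ran from 3307415 to 6477825, and 3 counts in a library stood for 0.407 to 1.10 CPM. Beta-cell markers (8 of 9 in the files, none at 0) summed to 227908 to 297159 CPM at P10 and 538705 to 671884 CPM in adults, and 6 of 8 tested rose. Alpha-cell markers (7 of 7) summed to 25011 to 28070 CPM and then 13380 to 18026 CPM, nearly all of it Gcg. Gcg fell, and 5 of the 7 did not pass. Delta- and PP-cell markers (4 of 4) summed to 4088 to 4335 and 5104 to 7701 CPM, where Ppy rose, Pyy fell, and Sst and Hhex did not pass. Fibroblast and stellate-cell markers (9 of 9, Col1a2 listed at 0 in all libraries) went from between 2567 and 3283 to between 261 and 364 CPM, with 7 of 8 tested lower. Duct markers (5 of 7) went from between 856 and 915 to between 30.4 and 42.96 CPM, with 3 of 4 tested lower. Acinar markers (9 of 9) overlapped, at 2604 to 3728 and 1058 to 4163 CPM, with 3 higher and 3 lower. Their sums in adult replicates 1, 2 and 3 were 1058, 1186 and 4163 CPM, so the overlap came from adult replicate 3. Endothelial markers (8 of 8) lay at 93.0 to 137 and 52.6 to 86.5 CPM, where Cldn5 and Emcn fell and the other 6 did not pass. Leukocyte markers (7 of 7, Cd3e at 0 in adults) overlapped, at 91.8 to 213 and 83.9 to 140 CPM, and 0 of 6 tested passed in edgeR (0 also at an unadjusted p under 0.05). Schwann-cell and neuronal markers (9 of 9) overlapped in sum, at 222 to 240 and 228 to 241 CPM, a sum made up mostly of Ncam1 and Tubb3, whereas the glial marker S100b fell (edgeR FDR = 0.00023). Erythroid markers (4 of 6) lay at 148 to 175 and 38.4 to 106 CPM, with 1 of 2 tested lower. The part of these markers in the transporter differences was not tested. In whole islets, fewer cells of a type and less RNA per cell cannot be told apart.

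Some libraries list 0 for genes that the others count at low levels. Among genes expected at 5 to 10 counts from the other 5 libraries, 344 of 742 were at 0 in P10 replicate 1 and 268 of 780 in adult replicate 3. The count was 122 of 739 in P10 replicate 3, 27 of 862 in P10 replicate 4, 98 of 957 in adult replicate 1 and 86 of 1007 in adult replicate 2. Zeros of weakly expressed transporters are therefore no evidence of absence. Without both libraries 13 transporters were higher, the 12 among them. The fall of Slc7a7 no longer passed there (log2 fold change -1.14, edgeR FDR = 0.0986).

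Before the values by family, the promoter windows of 4 genes are shown: the heavy chain Slc3a2, the light chains Slc7a5 and Slc7a8, which rose with it, and the light chain Slc7a7, which did not. Each is the RefSeq window on GRCr8 from 250 bases before to 50 after the gene's start, 5′ to 3′ on the gene's strand. They lie at chr1:215048015-215048314 (minus strand), chr19:66872363-66872662 (minus strand), chr15:32212666-32212965 (minus strand) and chr15:31835634-31835933 (minus strand). Capitals mark matches, on either strand, to TGATGNAA (the composite element bound by ATF4 and C/EBP proteins), CACGTG (an E-box), CCAAT or TATAAA.
Slc3a2: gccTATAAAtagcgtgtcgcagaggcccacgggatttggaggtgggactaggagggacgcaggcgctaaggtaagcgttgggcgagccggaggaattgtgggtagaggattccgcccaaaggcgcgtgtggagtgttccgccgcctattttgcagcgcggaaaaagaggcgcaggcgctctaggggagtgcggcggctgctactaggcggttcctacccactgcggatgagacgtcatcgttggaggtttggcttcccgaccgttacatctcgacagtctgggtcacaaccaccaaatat
Slc7a5: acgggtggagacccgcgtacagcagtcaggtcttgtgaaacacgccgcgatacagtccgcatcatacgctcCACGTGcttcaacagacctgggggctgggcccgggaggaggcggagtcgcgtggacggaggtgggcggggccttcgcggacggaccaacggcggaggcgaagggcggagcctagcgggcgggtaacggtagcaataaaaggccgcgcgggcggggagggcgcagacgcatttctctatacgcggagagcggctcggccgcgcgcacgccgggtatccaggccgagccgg
Slc7a8: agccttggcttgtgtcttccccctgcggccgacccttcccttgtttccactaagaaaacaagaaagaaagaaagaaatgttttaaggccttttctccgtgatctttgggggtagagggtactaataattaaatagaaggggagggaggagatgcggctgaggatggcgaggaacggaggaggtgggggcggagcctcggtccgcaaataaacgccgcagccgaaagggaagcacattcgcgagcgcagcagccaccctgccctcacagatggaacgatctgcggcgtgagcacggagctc
Slc7a7: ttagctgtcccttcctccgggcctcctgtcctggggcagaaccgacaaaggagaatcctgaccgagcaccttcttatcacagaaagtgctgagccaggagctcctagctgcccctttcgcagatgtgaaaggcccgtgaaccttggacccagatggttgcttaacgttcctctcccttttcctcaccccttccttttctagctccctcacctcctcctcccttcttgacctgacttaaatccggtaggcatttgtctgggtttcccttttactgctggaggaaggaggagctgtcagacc

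Slc3a2 held 1 TATAAA, 247 bases before the start, Slc7a5 held 1 CACGTG, 179 bases before it, and the Slc7a8 and Slc7a7 windows held no match. RefSeq windows matched 44 of the 58 transporters by symbol, 10 of them among the 12 that rose. None of those 10 held TGATGNAA, 1 held CACGTG, 3 held CCAAT and 3 held TATAAA. Over all 33469 windows the shares were 3.98% for TGATGNAA, 6.42% for CACGTG, 37.5% for CCAAT and 14.2% for TATAAA. The 3 transporters with TGATGNAA were Slc1a4, Slc38a1 and Slc7a1, which did not pass in the age comparison. A match describes letters in this window and is no evidence of binding, and a missing match concerns this window alone.

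Both heavy chains were higher in adult islets. Slc3a2, also known as 4F2hc or CD98, the partner of most Slc7 light chains, measured 213, 218 and 248 CPM at P10 and 364, 397 and 433 CPM in adults. All adult libraries lay above all P10 libraries, and the rise was 1.76-fold (log2 fold change 0.82 ± 0.12 SE, edgeR FDR = 0.000147). Slc3a1, or rBAT, the heavy chain of the renal cystine carrier, was at 3.25, 5.05 and 5.10 CPM at P10 and at 14.5, 15.4 and 15.8 CPM in adults. It rose 3.43-fold (1.78 ± 0.38 SE, edgeR FDR = 0.00278), again with no overlap. Slc3a1 overlaps Prepl in the GRCr8 gene table, and Prepl rose 2.42-fold in the same libraries. The libraries do not keep strand, so reads of their shared stretch cannot be told apart. Slc7a9, the light chain that pairs with Slc3a1 in kidney, had 1 read in adult replicate 1 and none elsewhere.

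The light chains that pair with Slc3a2 went different ways. Slc7a5, or LAT1, which exchanges large neutral amino acids such as leucine, had 152, 118 and 131 CPM at P10 and 266, 242 and 276 CPM in adults. The adult values stood apart from those of the pups, and the gene rose 1.95-fold (log2 fold change 0.97 ± 0.13 SE, edgeR FDR = 6.62e-05). Slc7a8, or LAT2, with a broader range of neutral substrates, had 158, 148 and 182 CPM and then 339, 354 and 329.6 CPM. It rose 2.10-fold (1.07 ± 0.12 SE, edgeR FDR = 1.30e-05), with the adult libraries within a narrow band. Slc7a8 overlaps 2 genes of long noncoding RNA in the GRCr8 gene table, so its counts are uncertain.

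Slc7a7, or y+LAT1, which exports arginine and lysine in exchange for neutral amino acids, was the single transporter that fell. It had 14.9, 9.06 and 10.9 CPM at P10 and 6.22, 2.57 and 3.86 CPM in adults, a 2.76-fold fall without overlap (log2 fold change -1.47 ± 0.45 SE, edgeR FDR = 0.0242). The call was lost without any 1 of P10 replicates 1 and 4 or adult replicates 2 and 3 (edgeR FDR from 0.0584 to 0.0877). Slc7a7 is also known from macrophages and epithelia; leukocyte markers overlapped between the ages, duct markers did not, and their part was not tested. Slc7a7 and Slc7a8 both lie on rat chromosome 15.

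Slc7a6, or y+LAT2, the close relative of Slc7a7, had 27.4, 19.9 and 16.0 CPM at P10 and 16.6, 19.8 and 20.2 CPM in adults. The groups overlapped and it did not pass (log2 fold change -0.17 ± 0.26 SE, edgeR FDR = 0.689). Slc7a11, or xCT, the cystine-glutamate exchanger, stood at 4.61, 5.05 and 1.70 CPM and then 5.19, 6.60 and 10.1 CPM. Its groups did not overlap, yet it did not pass either (0.93 ± 0.54 SE, edgeR FDR = 0.227). Slc7a10, or Asc-1, with at most 6 reads in a library, and Slc7a12 and Slc7a13, with none, were not tested.

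Ratios within a library do not depend on scaling. Reads of Slc7a5 and Slc7a8 together, over reads of Slc3a2, numbered 1.31 ± 0.125 (SD, n = 3) at P10 and 1.52 ± 0.134 (SD, n = 3) in adults, with overlap (exact two-sided permutation p = 0.2, adjusted 0.24). Slc7a7 over Slc3a2 went from 0.0519 ± 0.0158 to 0.0108 ± 0.00558 (SD, n = 3 each; exact two-sided permutation p = 0.1, adjusted 0.15), with no overlap. That raw p is the smallest that 3 against 3 libraries allow, so the threshold of 0.05 cannot be reached. Ratios and shares were not among the planned comparisons. Slc7a7 over Slc3a2 sets a gene that fell against a gene that rose in the same libraries, so it is no separate evidence. The ratio of Slc7a5 to Slc7a8 overlapped between the ages, at 0.829 ± 0.123 and 0.769 ± 0.0791 (SD, n = 3 each; exact permutation p = 0.5). Benjamini-Hochberg adjustment ran over the 6 ratios and shares given here and further on.

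The cationic carriers of the Slc7 family bring in arginine, lysine and ornithine without a heavy chain. Slc7a2, or CAT2, had 126, 142 and 206 CPM at P10 and 297, 367 and 214 CPM in adults. It rose 1.86-fold (log2 fold change 0.89 ± 0.20 SE, edgeR FDR = 0.00338), although adult replicate 3 came close to P10 replicate 4. Slc7a4, a relative of these carriers, had 23.9, 36.1 and 37.9 CPM and then 64.3, 76.6 and 53.1 CPM. It rose 1.98-fold without overlap (0.99 ± 0.21 SE, edgeR FDR = 0.00256).

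Slc7a1, or CAT1, the widespread arginine carrier, was not called. It had 52.1, 30.6 and 47.1 CPM at P10 and 54.3, 49.8 and 59.7 CPM in adults, with overlap (log2 fold change 0.34 ± 0.20 SE, edgeR FDR = 0.237). Slc7a14, another member of this branch, lay between 6.24 and 9.95 CPM at P10 and between 7.95 and 10.3 CPM in adults (edgeR FDR = 0.845). Slc7a3, or CAT3, with 11, 15 and 1 reads at P10 and 0, 1 and 4 in adults, and Slc7a15, with 1 to 8 reads in a library, were below the minimum.

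Slc43a2, or LAT4, which lets branched-chain amino acids, phenylalanine and methionine pass without an exchange partner, had 176, 197 and 234 CPM at P10. In adults it had 389, 427 and 372 CPM, all above the pups. The rise was 1.96-fold (log2 fold change 0.97 ± 0.13 SE, edgeR FDR = 5.83e-05). Its relatives were scarce: Slc43a1, or LAT3, had 0, 16 and 8 reads at P10 and 7, 3 and 11 in adults, and Slc43a3 had at most 9 reads in a library. Both list 0 in P10 replicate 1, one of the libraries that lack low counts.

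The Slc38 family carries glutamine, alanine and other small neutral amino acids, and 2 of its 7 tested members rose. Slc38a5, or SNAT5, a glutamine carrier linked in mice to alpha-cell growth when amino acids are in excess, had 432, 384 and 342 CPM at P10. In adults it had 849, 1002 and 821 CPM, with no overlap. The rise of 2.31-fold had the smallest FDR of the 30 (log2 fold change 1.21 ± 0.13 SE, edgeR FDR = 5.08e-06). Over the same libraries Gcg fell while 5 of 7 alpha-cell markers did not pass, and 6 of 8 beta-cell markers rose. Slc38a4, or SNAT4, had 118, 97.8 and 109 CPM and then 165, 128 and 152 CPM. It rose 1.37-fold (0.45 ± 0.14 SE, edgeR FDR = 0.0266), a call lost without any 1 of 4 libraries: P10 replicates 3 and 4 and adult replicates 1 and 3 (edgeR FDR from 0.0625 to 0.125).

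Slc38a2, or SNAT2, a carrier that cells raise when amino acids run short, did not follow. It had 103, 84.5 and 125 CPM at P10 and 66.7, 84.7 and 91.1 CPM in adults, with overlap (log2 fold change -0.36 ± 0.17 SE, edgeR FDR = 0.139). Reads of Slc38a5 over reads of Slc38a2 numbered 4.21, 4.54 and 2.73 at P10 and 12.7, 11.8 and 9.01 in adults (exact two-sided permutation p = 0.1, the smallest possible; adjusted 0.15). The adult libraries lay above those of the pups, and this ratio does not change with the scaling. It sets a gene called higher against one with a negative log2 fold change in the same libraries, so it is no separate evidence.

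Slc38a1, or SNAT1, had 9.22, 10.3 and 5.83 CPM at P10 and 10.7, 15.8 and 11.6 CPM in adults, without overlap but not past the threshold (log2 fold change 0.57 ± 0.37 SE, edgeR FDR = 0.282). Slc38a3, or SNAT3, which moves glutamine either way, lay between 6.98 and 9.76 CPM at P10 and between 8.45 and 10.7 CPM in adults (edgeR FDR = 0.675). The lysosomal members did not pass: Slc38a7, which exports glutamine, ran from 5.83 to 10.7 CPM and from 7.61 to 13.6 CPM (edgeR FDR = 0.558). Slc38a9, the arginine sensor that signals to the growth kinase complex mTORC1, had 3.93, 2.97 and 1.94 CPM and then 1.73, 1.10 and 3.67 CPM (edgeR FDR = 0.731). Slc38a6, with at most 9 reads, and Slc38a8, with at most 4, were not tested.

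**Figure D2:**
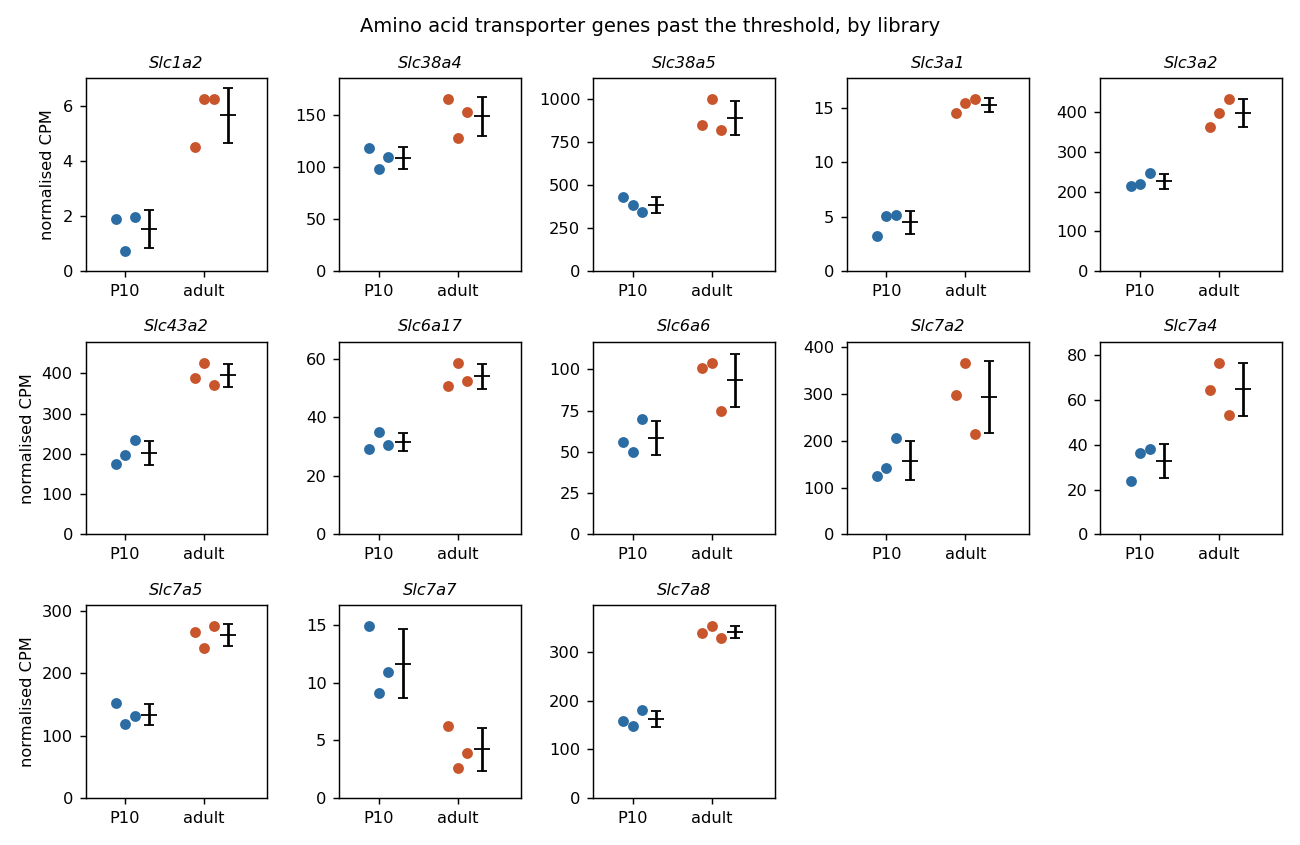
TMM-normalised CPM in each library for the 13 transporter genes past the threshold, P10 (blue) and adult (orange), on linear axes that start at 0 and differ between panels. Black bars are the mean and SD of 3 libraries. In each panel the 2 ages do not overlap. Slc7a7 is the one panel in which the adult points lie lower, and in Slc7a2 the closest points are 206 CPM at P10 and 214 CPM in adults.

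Slc1 proteins take up glutamate and aspartate or exchange neutral amino acids. Slc1a2, or GLT1, the main glutamate carrier of brain astrocytes, also reported in islets, had 1.90, 0.743 and 1.94 CPM at P10 and 4.50, 6.23 and 6.24 CPM in adults. Its groups did not overlap, and it rose 3.72-fold (log2 fold change 1.89 ± 0.65 SE, edgeR FDR = 0.0435), on 27 reads against 64. This call was lost without any 1 of 5 libraries, all but P10 replicate 1 (edgeR FDR from 0.0918 to 0.166), and without a filter (edgeR FDR = 0.0699).

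Slc1a5, or ASCT2, a glutamine carrier of growing cells, pointed downward, with 10.0, 17.5 and 21.4 CPM at P10 and 11.8, 9.16 and 6.24 CPM in adults. The groups overlapped and it did not pass (log2 fold change -0.86 ± 0.37 SE, edgeR FDR = 0.103), except without P10 replicate 1 (-1.12, edgeR FDR = 0.0256) and with library totals alone. Slc1a4, or ASCT1, its relative for serine and alanine, had 9.36, 16.3 and 12.1 CPM and then 17.6, 16.1 and 15.1 CPM (0.36 ± 0.31 SE, edgeR FDR = 0.420). Slc1a3, or GLAST, a glial glutamate carrier, had 9.22 CPM in P10 replicate 1 against 1.63 and 1.70 in the other pups. Adults had 3.11 to 7.33 CPM (edgeR FDR = 0.812). Slc1a1, or EAAC1, the neuronal glutamate carrier, had 12, 10 and 4 reads at P10 and 4, 5 and 0 in adults, under the minimum. Slc1a7 had 2 reads in P10 replicate 3 and none elsewhere.

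Among the sodium- and chloride-coupled Slc6 carriers, 2 of 5 tested rose. Slc6a17, which loads neutral amino acids into vesicles of neurons, had 29.3, 34.9 and 30.3 CPM at P10 and 50.5, 58.6 and 52.5 CPM in adults. It rose 1.71-fold without overlap (log2 fold change 0.77 ± 0.18 SE, edgeR FDR = 0.00446). Slc6a6, the taurine carrier, had 55.7, 49.9 and 69.9 CPM and then 101, 104 and 74.9 CPM. It rose 1.59-fold (0.67 ± 0.18 SE, edgeR FDR = 0.0103), although removing any 1 of 3 libraries ended the call: P10 replicate 3 (edgeR FDR = 0.0506), adult replicate 1 (0.0533) and adult replicate 2 (0.0584).

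Slc6a8, the creatine carrier, overlapped between the ages, at 23.1, 24.7 and 22.3 CPM at P10 and 29.7, 25.3 and 19.8 CPM in adults (log2 fold change 0.08 ± 0.23 SE, edgeR FDR = 0.832). Slc6a9, the glycine carrier GlyT1, split the adults: 18.0, 14.1 and 10.2 CPM at P10 against 6.57, 7.33 and 21.5 CPM (-0.21 ± 0.42 SE, edgeR FDR = 0.752), with adult replicate 3 above every other library.

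Of the other Slc6 genes, 7 had reads but too few to test. They were Slc6a12 (betaine and GABA), Slc6a4 (serotonin), Slc6a5 (glycine), Slc6a7 (proline), Slc6a15, Slc6a19 and Slc6a20 (neutral amino acids or proline), with at most 15 reads in any library. Slc6a2 and Slc6a3, the noradrenaline and dopamine carriers, the GABA carriers Slc6a11 and Slc6a13, and Slc6a14 and Slc6a18 were listed at 0 throughout. Slc1a6, Slc36a2, Slc36a3, Slc7a12 and Slc7a13 were also listed at 0 in all libraries.

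Neither tested Slc36 carrier passed. Slc36a1, or PAT1, which exports small amino acids from lysosomes and takes part in mTORC1 signalling, had 15.1, 12.8 and 15.3 CPM at P10 and 23.5, 20.2 and 13.8 CPM in adults (log2 fold change 0.40 ± 0.29 SE, edgeR FDR = 0.334). Slc36a4, or PAT4, had 9.90, 8.92 and 16.0 CPM and then 9.68, 9.53 and 20.9 CPM (0.25 ± 0.38 SE, edgeR FDR = 0.675). The highest library of Slc36a4 was adult replicate 3, and without it the sign turned (-0.25).

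The Slc7 sum was 578 ± 62.4 CPM at P10 and 1056 ± 75.8 CPM in adults, the Slc38 sum 627 ± 47.2 and 1157 ± 86.1 CPM, and the Slc3 sum 231 ± 19.6 and 413 ± 35.4 CPM (SD, n = 3 each). The Slc43 sum was 204 ± 30.5 and 398 ± 27.1 CPM, and the Slc6 sum 131 ± 5.94 and 190.5 ± 14.9 CPM (SD, n = 3 each). The Slc1 sum, 36.1 ± 3.43 and 37.3 ± 4.12 CPM, and the Slc36 sum, 26.0 ± 4.89 and 32.5 ± 2.57 CPM, moved less (SD, n = 3 each). Single genes made up most of some sums, in mean CPM at P10 and in adults: Slc38a5 with 386 and 891, Slc43a2 with 202 and 396, and Slc3a2 with 226 and 398. By itself a higher sum therefore does not show a rise across the family, although Slc3a1 and Slc3a2 were each called higher. The family sums were not tested. Of all gene counts, with no scaling factor, the 58 transporters took 0.208%, 0.217% and 0.225% at P10 and 0.280%, 0.274% and 0.273% in adults (exact two-sided permutation p = 0.1, adjusted 0.15). Of gene counts other than those of both insulin genes the shares were 0.316% ± 0.0148 and 0.539% ± 0.0314 (SD, n = 3 each; exact two-sided permutation p = 0.1, adjusted 0.15). With either denominator the adult libraries lay above the P10 libraries.

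Folds depend on the scaling. Insulin reads took 28.3% to 33.6% of gene counts at P10 and 46.6% to 52.3% in adults, and their part in this was not tested. With library totals alone the typical gene shifted down, to a median of -0.52 on the log2 scale, and 5 transporters were higher and 3 lower. The 5 were Slc38a5, Slc7a8, Slc7a5, Slc43a2 and Slc3a1, which also passed a test against a 1.5-fold change and in each alternative tried. The 3 lower ones were Slc7a7, Slc1a5 and Slc38a2. Slc3a2, Slc7a2, Slc7a4, Slc6a17, Slc6a6 and Slc1a2 kept a positive sign without passing (edgeR FDR from 0.0789 to 0.461), and Slc38a4 turned to -0.03. Calls of higher and lower are therefore relative to the bulk of genes.

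**Figure D3:**
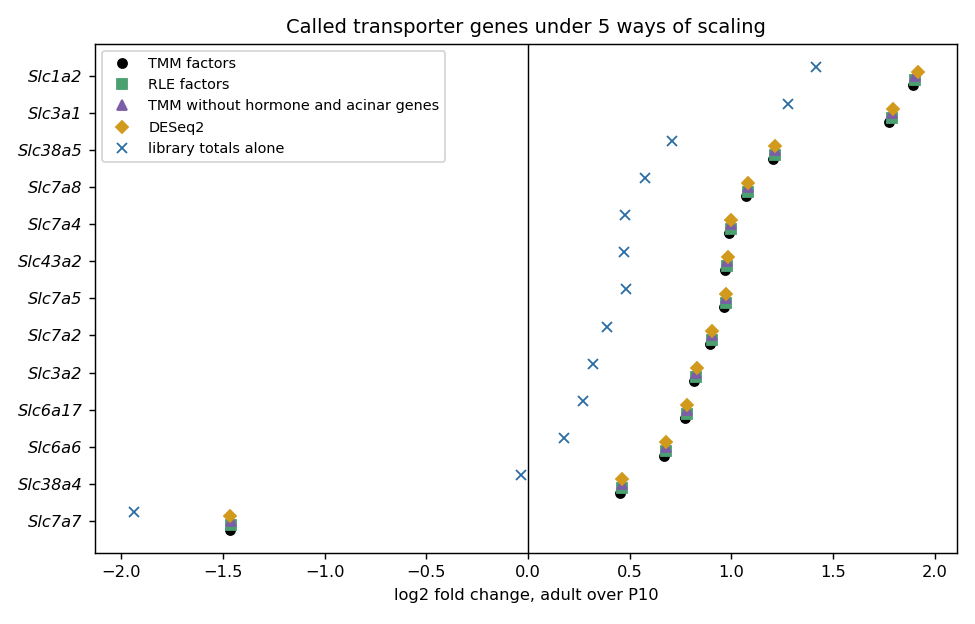
Log2 fold change, adult over P10, of the 13 called transporter genes under 5 ways of scaling the libraries. TMM, relative log expression (RLE), TMM without hormone and acinar genes, and DESeq2 fall almost on one point, while library totals alone (crosses) lie to the left for each gene, moving Slc38a5 from 1.21 to 0.71 and Slc38a4 from 0.45 to -0.03.

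Genes that use, sense or respond to amino acids were read from 4 lists. In the response to amino acid shortage, which runs through the kinases of eIF2 and the factor ATF4, 13 of 29 tested genes rose and 1 fell. The share called was 48.3%, against 26.3% of all genes tested, with a median log2 fold change of 0.42. Of the kinases of eIF2 in the list, Eif2ak3 rose (edgeR FDR = 0.0137), while Eif2ak1 (0.289) and Eif2ak4 (0.561) did not pass. Atf4 itself did not pass (edgeR FDR = 0.165). Whether amino acids ran short at either age was not tested. Gdf15, a stress-induced secreted factor, rose from 3.94 ± 0.583 to 25.7 ± 5.88 CPM (SD, n = 3; edgeR FDR = 2.05e-05). Ppp1r15a, or GADD34, the phosphatase subunit that ends the response, rose from 45.1 ± 1.86 to 88.9 ± 17.5 CPM (edgeR FDR = 0.000483). Psat1, an enzyme of serine synthesis, fell from 10.1 ± 4.04 to 2.95 ± 0.534 CPM (edgeR FDR = 0.0140), but not when P10 replicate 1 (0.0680) or adult replicate 1 (0.0540) was left out. Without adult replicate 3, 8 genes of this list rose, and with library totals alone 3 were higher and 4 lower (median log2 fold change -0.071).

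Among 40 tested enzymes of amino acid metabolism 9 rose and 5 fell, 35% in all against 26.3% of all genes tested (median log2 fold change 0.14). With library totals alone the balance turned, to 6 higher and 15 lower (median -0.36). Gad1, which makes GABA from glutamate, rose from 46.5 ± 7.21 to 417 ± 80.3 CPM (SD, n = 3; log2 fold change 3.16 ± 0.17 SE, edgeR FDR = 4.82e-09). Arg1, an arginase, rose from 47.3 ± 1.91 to 208 ± 33.0 CPM (edgeR FDR = 5.93e-08). Oat, the ornithine aminotransferase, fell from 58.5 ± 9.03 to 8.78 ± 1.72 CPM (edgeR FDR = 5.39e-07).

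In the list for amino acid sensing by mTORC1, which also holds targets of mTORC1, 6 of 33 tested genes rose and 2 fell (median log2 fold change 0.19). These calls make up 24.2%, near the 26.3% called over all genes tested (12.5% higher and 13.8% lower). Rptor, the subunit that recruits substrates, rose from 47.9 ± 5.17 to 86.7 ± 9.05 CPM (SD, n = 3; edgeR FDR = 0.000953). Flcn, folliculin, a regulator at the lysosome, rose from 45.2 ± 9.13 to 78.7 ± 6.21 CPM (edgeR FDR = 0.00344). Eif4ebp1, a translation repressor that mTORC1 phosphorylates, fell from 54.9 ± 7.29 to 26.4 ± 2.90 CPM (edgeR FDR = 0.000734). The other gene that fell was Sesn1, from 21.8 ± 1.40 to 9.68 ± 1.46 CPM (edgeR FDR = 0.00608). Without adult replicate 1, 4 members of this list rose, and with library totals alone 1 was higher and 9 were lower.

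Amino acid and peptide carriers outside the 7 families gave 1 rise among 12 tested, 8.33%, and 0 falls (median log2 fold change 0.23). DESeq2 also gave 0 falls, and 1 gene was lower at an unadjusted edgeR p under 0.05. The riser was Slc44a1, a choline carrier in that list, at 37.9 ± 3.09 and 55.0 ± 8.93 CPM (SD, n = 3; edgeR FDR = 0.0364), a call lost without any 1 of 4 libraries: P10 replicates 3 and 4 and adult replicates 1 and 3. The shares called can be read against 26.3% of all genes.

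**Figure D4:**
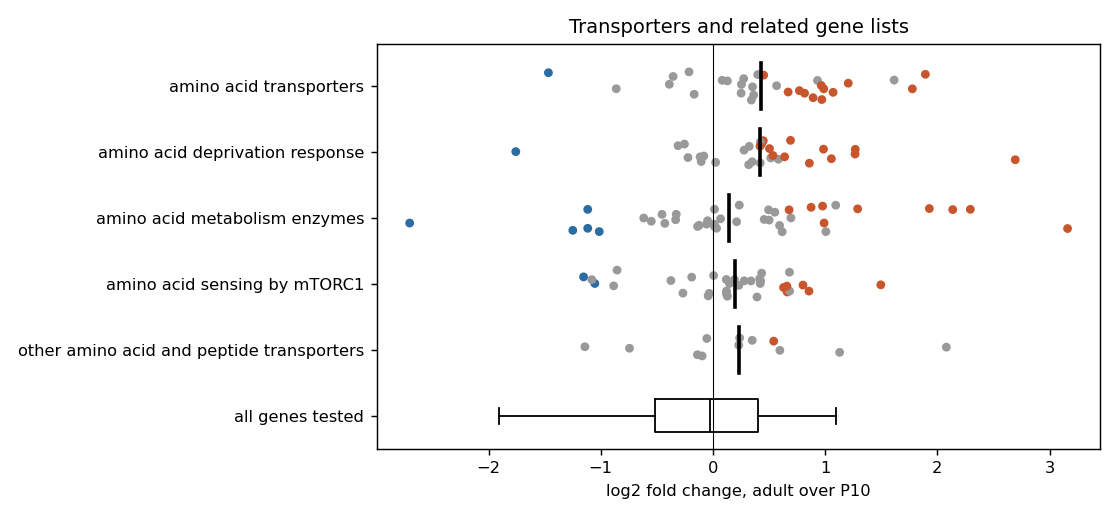
Log2 fold change, adult over P10, of the tested genes of each list, 1 point a gene, with the list's median as a black bar. Orange points are higher and blue points lower in adults at an FDR under 0.05, and grey points did not pass. The box shows all 10124 genes tested (quartiles, whiskers from the 5th to the 95th percentile). The medians of the transporters, 0.43, and of the shortage response, 0.42, lie to the right of the median of all genes, -0.03.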

How the data were processed

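The 58 members and the gene lists were chosen with earlier results of these data known. Per the labels' protocols, polyadenylated RNA was made into single-end libraries that do not keep strand. The rn5 build, HTSeq, TopHat2 2.0.10, Bowtie2, edgeR and DESeq are named, with no role given, per the submitters' processing notes. The authors deposited raw read counts per gene symbol, 1 table for each library, which are the values used. Counter rows were left out: ambiguous reads made up 0.319% to 0.474% and non-unique alignments 15.1% to 27.7% of each table. A deposited table of all libraries was not used.

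All 17055 genes entered one fit with edgeR 4.0.16 (R 4.3.3): filterByExpr (minimum count 10, total 15; 10124 genes left), TMM factors, a quasi-likelihood test on age, Benjamini-Hochberg adjustment and a threshold of 0.05. SE was taken from the size of each log2 fold change and its F (size over root F). The fit was tested on simulated data with a fixed dispersion. That simulation built in no missing low counts and no shift in insulin share, so it does not cover these features of the libraries. Named genes are all members past the threshold, a set of well-known members whatever their result (of which Slc38a10 is not analysed here), and of each list the called genes with the smallest p, 2 in the commoner direction and 1 in the other. Atf4, Eif2ak1, Eif2ak3, Eif2ak4 and Sesn1 were named outside this rule. List entries were matched by symbol or RefSeq synonym (GRCr8). DESeq2 1.42.0 was an alternative, with other factors, filters and left-out libraries. Leaving out the pair of libraries with the most missing low counts was added after seeing the data. By RefSeq's GRCr8 genes, 5 of the 13 called members overlap another gene, so their counts are uncertain. They are Slc3a1, Slc38a4, Slc6a6, Slc7a4 and Slc7a8. Values of 1 further tested member are not reported here.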

Additional observations from a re-analysis of the deposited data

How the results depend on the processing

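The 12 higher transporters stayed between 9 and 13 under the RLE, hormone-free TMM, DESeq2, filter and replicate block settings and without single libraries (9 to 13), but fell to 5 with library totals alone and 5 in the test against a 1.5-fold change. The 1 lower transporter became 3 with library totals alone, 0 with the 1.5-fold test, 0 with the replicate block, 0 without the 2 libraries short of low counts, and 0 to 1 without single libraries. Replicate numbers 1 and 3 occur at both ages, but nothing in the labels ties them together. Deviations of same-numbered libraries correlated at -0.03 and -0.0043, so no pairing was assumed. With the replicate block 679 genes were higher and 729 lower against 1265 and 1394, and 9 transporters were higher, without Slc1a2, Slc38a4 and Slc6a17. P10 replicate 4 and adult replicate 2 share their number with no library of the other age. The block fit therefore compared the ages on fewer libraries, and its lost calls do not tell whether libraries are paired. With library totals alone 343 genes were higher and 3612 lower, and in the 1.5-fold test 337 and 624.

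For the lists, library totals alone gave, higher and lower, 3 and 4 in the shortage response, 1 and 9 in mTORC1 sensing, 0 and 1 among other carriers, and 6 and 15 among metabolic enzymes. The replicate block gave 6 and 0, 2 and 1, 0 higher other carriers and 3 lower enzymes. The 1.5-fold test gave 3 and 0, 1 and 1, 0 higher other carriers and 3 lower enzymes. Other carriers had 2 higher genes under DESeq2, 3 without a filter, and 1 lower without the 2 libraries short of low counts. Without single libraries the ranges were 8 to 13 and 0 to 1 for the shortage response, 4 to 6 for mTORC1 sensing, and 0 to 1 in either direction for other carriers.

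Signs turned for 10 transporters under library totals alone, 1 of them called: Slc38a4 (-0.032), Slc1a3 (-0.20), Slc1a4 (-0.14), Slc36a1 (-0.091), Slc36a4 (-0.22), Slc38a3 (-0.24), Slc38a7 (-0.16), Slc6a8 (-0.41), Slc7a1 (-0.14) and Slc7a14 (-0.37). Without single libraries the log2 fold change spanned zero for 6 transporters that were not called: Slc1a3 (-0.11 to 1.63), Slc36a4 (-0.25 to 0.54), Slc6a8 (-0.058 to 0.24), Slc6a9 (-1.02 to 0.068), Slc7a14 (-0.046 to 0.25) and Slc7a6 (-0.32 to 0.078). Without the 2 libraries short of low counts it turned for Slc36a4 (-0.33), Slc7a14 (-0.065) and Slc7a6 (0.026). The cause of each change was not tested. The parts of depth and of missing low counts in the 28 genes left out of the test were not tested. Of these genes, 11 were listed at 0 in all libraries, as was the marker Col1a2. Why a row stood at 0 throughout was not tested.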
